A study of Homo sapiens with 3 samples.

Results

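The kinesin genes were taken as every gene on the array whose name starts with KIF followed by a digit, or with KIFC followed by a digit. There were 41 such genes among 27274 gene names, and they were measured by 59 of 34127 probes. For a gene with several probes, the brightest stands for it. By their known roles, 13 were grouped as mitotic kinesins, 17 as transport kinesins and 11 as other kinesins. KIF4B, a close copy of KIF4A in the mitotic group by its role, had no probe of that name, and whether its transcripts add to the KIF4A signal was not tested.

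Kinesins are motor proteins that use ATP to walk along microtubules or to take microtubule ends apart. In dividing cells, mitotic kinesins build the spindle, move and align chromosomes and assemble the midzone at which the cell divides, and their genes are typically switched on in the G2 and M phases of the cell cycle. Transport kinesins carry vesicles, endosomes, mitochondria and ciliary proteins, and are also used by cells that do not divide.

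The cells were HepG2, an established human liver cancer line with wild-type p53, and etoposide is a topoisomerase II inhibitor that leaves DNA double-strand breaks. Control cells received 0 μM etoposide (the labels call them untreated, while the study names its control DMSO), and the others 10 μM, the low dose, or 100 μM, the high dose, each for 30 h, with 1 array per condition and no other alteration of the cells in the labels. The study used the low dose to obtain senescence and the high dose to obtain apoptosis, and these arrays asked how the transcripts of the cells differ between them. With 1 array per condition no ratio below has a replicate check, so no test was made.

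The signal of each probe was scaled so that the 75th percentile of each array equaled that of the control array, and all signals below are on this scale unless stated otherwise. The unscaled percentile was 514 in control cells, 536 at 10 μM and 432 at 100 μM. From 19836 to 20153 probes per array were well above background by the software's own call, the lowest such signal was 19.5 to 25.7 after scaling, and no spot was saturated. All 10 hepatocyte markers were well above background on each array. Of 8 markers of blood, endothelial and stromal cells, 5 were also well above background, among them PTPRC, CD3E, PECAM1 and CDH5, whereas COL1A2, COL3A1 and DCN were not. The summed unscaled signal of these 8 was 1635 in control cells, 1237 at 10 μM and 1350 at 100 μM, and its part in the results was not tested. A ratio is called lower or higher here when it passed 2-fold. Where the dimmer condition was not well above background, its signal was set no lower than the array's lowest well-measured signal and the ratio is given as a bound ("at least"). The spot SD beside a ratio is the spread expected from 10-fold repeated probes of like signal on the same arrays. It does not cover differences between cultures.

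The promoters of some kinesins are shown because the mitotic genes moved together at 100 μM. Sequences are from RefSeq on GRCh38.p14 and were searched in windows of 300 bases, 250 before and 50 after the annotated transcription start, for 33 of the 41 genes. KIF19, KIF26B, KIF27, KIF13B, KIF21B, KIF5A, KIFC2 and KIFC3 had no window in the table used. The first motif was the cell cycle genes homology region (CHR), spelled TTTGAA in its common form and TTCGAA in its rarer form, an element known from promoters repressed outside G2 and M. The second was CCAAT, the box bound by NF-Y. Both strands were searched, so that on the other strand the common CHR reads TTCAAA and the box reads ATTGG. The printed stretch runs from -120 to 30 relative to the start, 5′ to 3′ on the strand of the gene, with CHR and CCAAT matches in capitals.

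The first set is the 3 mitotic genes with the lowest ratios at 100 μM among those measured on both arrays, KIF4A (chrX:70289984-70290133, plus strand), KIF15 (chr3:44761674-44761823, plus strand) and KIF11 (chr10:92593010-92593159, plus strand).
KIF4A: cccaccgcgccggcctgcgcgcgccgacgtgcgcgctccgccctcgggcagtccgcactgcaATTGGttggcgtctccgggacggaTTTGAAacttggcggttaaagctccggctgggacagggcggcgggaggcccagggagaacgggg
KIF15: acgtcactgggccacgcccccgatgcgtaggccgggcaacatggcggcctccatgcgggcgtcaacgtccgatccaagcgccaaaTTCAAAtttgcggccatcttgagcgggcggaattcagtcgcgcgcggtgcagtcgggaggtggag
KIF11: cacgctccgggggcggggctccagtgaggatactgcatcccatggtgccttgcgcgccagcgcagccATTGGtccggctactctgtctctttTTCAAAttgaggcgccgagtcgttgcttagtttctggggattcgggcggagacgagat

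KIF4A and KIF11 each held a CCAAT box upstream of a CHR. In KIF4A the box lay from -58 to -54 and the CHR from -34 to -29. In KIF11 the box lay from -53 to -49 and the CHR from -28 to -23, both on the strand opposite the gene. KIF15 held a CHR from -35 to -30 and no CCAAT in its window.

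The second set shows KIFC1 (chr6:33391703-33391852, plus strand), the mitotic kinesin with the largest rise at 10 μM, KIF24 (chr9:34329239-34329388, minus strand), the kinesin outside the mitotic group that was more than 2-fold lower at 100 μM, KIF2C (chr1:44739717-44739866, plus strand), a mitotic kinesin without a match, and KIF5B (chr10:32056396-32056545, minus strand), a transport kinesin.
KIFC1: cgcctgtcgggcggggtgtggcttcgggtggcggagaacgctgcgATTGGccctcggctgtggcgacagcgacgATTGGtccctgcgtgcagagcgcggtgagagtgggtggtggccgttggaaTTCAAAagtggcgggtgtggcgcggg
KIF24: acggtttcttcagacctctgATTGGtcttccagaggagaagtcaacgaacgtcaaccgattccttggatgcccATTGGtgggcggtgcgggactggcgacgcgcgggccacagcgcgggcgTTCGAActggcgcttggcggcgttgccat
KIF2C: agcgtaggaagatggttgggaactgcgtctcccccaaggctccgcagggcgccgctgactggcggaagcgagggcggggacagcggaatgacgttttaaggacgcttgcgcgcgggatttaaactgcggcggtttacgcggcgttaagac
KIF5B: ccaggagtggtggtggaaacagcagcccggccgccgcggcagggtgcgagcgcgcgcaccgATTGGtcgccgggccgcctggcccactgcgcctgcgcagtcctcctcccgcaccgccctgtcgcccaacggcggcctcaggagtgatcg

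KIFC1 held a CHR from 5 to 10 and CCAAT boxes starting at -75 and -46. KIF24 held a CHR from 2 to 7 and CCAAT boxes starting at -154, -100 and -47, the first of which lies outside the printed stretch. KIF5B held a CCAAT from -59 to -55, and its CHR, from -140 to -135, lies upstream of the stretch.

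A CHR was present in 10 of 13 mitotic genes (76.9%), in 1 of 12 transport genes with a window (KIF5B, 8.33%) and in 1 of 8 other genes (KIF24). By comparison, 16.4% of all 35116 windows and 19.5% of all 27305 genes held one. The mitotic genes without a CHR were KIF2C, KIF20A and KIF2B. CCAAT was found in 10 of 13 mitotic genes, 4 of 12 transport genes (KIF1B, KIF3B, KIF5B and KIF5C), 3 of 8 other genes and 34.6% of all windows. Both motifs were found in 9 of 13 mitotic genes, which were KIF11, KIF14, KIF18A, KIF18B, KIF20B, KIF22, KIF23, KIF4A and KIFC1, in 1 of 12 transport genes, in 1 of 8 other genes and in 6.38% of all windows. The E2F motifs searched were TTTCGCGC, then TTTGGCGC, then TTTCCCGC, and they were present in 1 of 13 mitotic genes (KIF15), 0 of 12 transport genes, 1 of 8 other genes (KIF25) and 2.74% of windows. Counted by gene, as for the kinesins, the shares over all 27305 genes were 39.7% for CCAAT, 7.85% for both motifs and 3.3% for the E2F motifs. No CHR match overlapped a CCAAT match in these windows. A match is a description of the letters in the window and not a measured binding site.

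**Figure D1:**
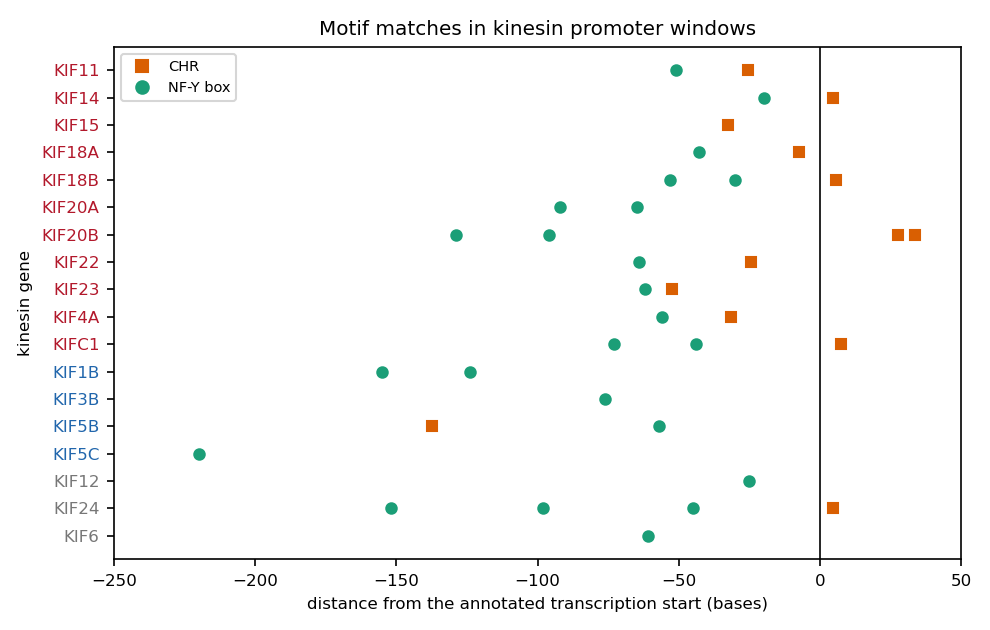
Positions of CHR matches (squares) and NF-Y boxes, the CCAAT motif (circles), relative to the annotated transcription start (x axis, bases), for the kinesin genes with a match (y axis, mitotic in red, transport in blue, other in gray). For a gene with several annotated starts, matches of 1 window are shown. In KIF11, KIF18A, KIF22, KIF23 and KIF4A the NF-Y box lies upstream of the CHR and both lie between -66 and -5.

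At 10 μM, 0 of 11 mitotic kinesins with a ratio were more than 2-fold higher (background, 3.37% of 16719 genes) or lower (1.6%) than in control cells. These counts are near the shares over all genes. At 100 μM, all 11 mitotic kinesins with a ratio were more than 2-fold lower than in control cells, whereas 3.66% of 16984 genes were. Measured on both arrays, 10 of them fell by 3.4-fold (KIF20B) to 12.7-fold (KIF4A), and KIF18A has a bound only. Since all 11 were lower, none could also be more than 2-fold higher (all genes, 6.76%). Of the 13 mitotic kinesins, 10 were well above background on each array, KIF18A on those of the control and the low dose, and KIF18B and KIF2B on none. In bulk RNA, fewer cells in mitosis and less of these transcripts per cell cannot be told apart.

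KIF11, also known as Eg5, is the motor that pushes spindle poles apart, and it was measured at chr10:94404607-94404666 of hg18. The signal of KIF11 was 1046 in control cells, 1266 at 10 μM and 130.8 at 100 μM. The 100 μM value was the lowest by far, with a log2 ratio to control of -3.00 (spot SD 0.10), whereas 10 μM lay 0.28 above control. KIF15, which can take over the pole-separating work of KIF11, gave 695.5, 578.5 and 59.74 in the same order. This was a decrease at 100 μM by 11.6-fold, and at 10 μM the log2 ratio was -0.27. KIFC1 (HSET), a minus-end directed motor that focuses spindle poles, gave 353.9, 603.7 and 78.75. It was the mitotic kinesin with the largest ratio at 10 μM (1.71-fold, log2 0.77, spot SD 0.07), and at 100 μM it was 4.49-fold lower than in control cells.

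Kinesins that act on chromosomes and on the ends of spindle microtubules were lowest at 100 μM too. KIF4A, a chromokinesin that also carries PRC1 to the spindle midzone, had a signal of 810.2 in control cells, 827.7 at 10 μM and 63.89 at 100 μM. Its log2 ratio of -3.66 (spot SD 0.14) was the lowest at 100 μM among kinesins measured on both arrays, and the 10 μM and control signals differed by less than the spot SD. KIF22 (Kid), which pushes chromosome arms away from the poles, gave 1665, 2062 and 359.4, and its ratios were 1.24-fold higher at 10 μM and 4.63-fold lower at 100 μM. KIF2C (MCAK), which takes apart microtubule ends at kinetochores and so helps to correct faulty attachments, gave 3313, 3997 and 535.2. Its log2 ratio at 100 μM was -2.63. KIF18A, which damps the movements of kinetochore microtubules during alignment, had signals of 153.6 and 153.4 in control and 10 μM cells. Its signal of 8.185 at 100 μM was not well above background and was at least 5.97-fold lower than in control cells.

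The kinesins of the midzone and of cytokinesis fell as well. KIF23 (MKLP1), the motor of the centralspindlin complex, gave 1357 in control cells, 1744 at 10 μM and 321 at 100 μM, a 4.23-fold decrease at 100 μM. KIF20A (MKLP2), which brings the chromosomal passenger complex to the midzone, gave 549, 457.7 and 121.7. Its probe is spotted 10 times, so the spot SD of its log2 ratios, -0.26 at 10 μM and -2.17 at 100 μM, was only 0.02 and 0.04. KIF20B, which acts in cytokinesis, gave 337.9, 389 and 99.42, and its 3.40-fold decrease was the smallest of the mitotic group. KIF14, which works with citron kinase in cytokinesis, gave 646.8, 638.8 and 106.1, a 6.10-fold decrease at 100 μM with a 10 μM log2 ratio of -0.02. With normexp background correction, which adds an offset of 50 to each signal, all 11 stayed more than 2-fold lower at 100 μM, but the log2 ratios of 7 moved by over 1.5-fold, to -2.48 for KIF4A, -2.36 for KIF15, -1.94 for KIF14, -1.54 for KIF20A, -1.38 for KIFC1, -1.19 for KIF18A and -1.07 for KIF20B. Without a filter on dim probes KIF18A gave -4.23.

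**Figure D2:**
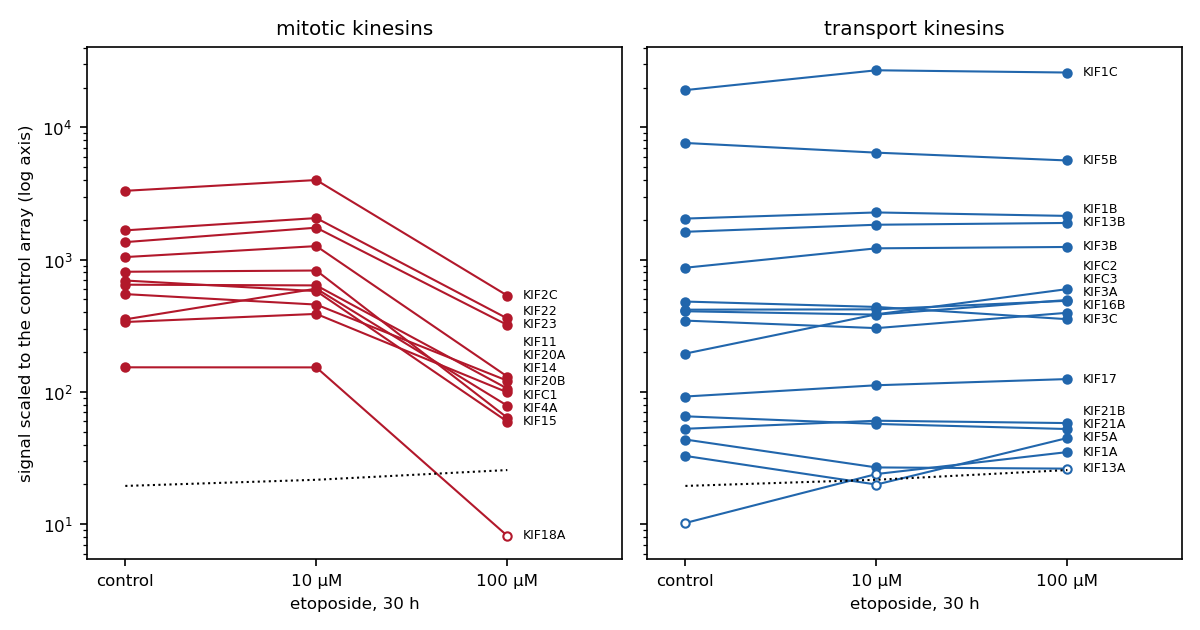
Scaled signal of each mitotic kinesin (left) and each transport kinesin (right) with a ratio, on a log axis, against the condition, with 1 array per condition. Filled points are well above background, open points are not, and the dotted line is the lowest signal well above background on each array. The mitotic lines run nearly level to 10 μM and drop at 100 μM, and most transport lines stay level.

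Between the doses, all 11 mitotic kinesins with a ratio were more than 2-fold higher with 10 μM than with 100 μM, whereas 3.63% of 16793 genes were. For the 10 measured on both arrays the ratio was 3.76-fold (KIF20A) to 13-fold (KIF4A). Since all 11 were higher, none could also be more than 2-fold lower (all genes, 3.95%). This comparison shares an array with each of the others, and those share the control array. KIF15 and KIF11 were 9.68-fold and 9.67-fold higher at 10 μM, KIFC1 7.67-fold, KIF2C 7.47-fold and KIF18A at least 5.96-fold. The median log2 ratio of the mitotic kinesins measured on both arrays was 0.20 for 10 μM over control (all genes, -0.03), -2.41 for 100 μM over control (all genes, 0.09) and 2.75 for 10 over 100 μM (all genes, -0.10). At 10 μM, 7 of the 11 lay above and 4 below control (all genes, 54.6% below), and KIF14, KIF18A and KIF4A lay within their spot SD. For 8 of the 11 the ratio exceeded 2 spot SDs, and these were 6 higher and 2 lower (KIF15 and KIF20A). The share of all genes past 2 spot SDs was not computed, so this count does not set the mitotic kinesins apart.

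The transport kinesins differed by less than 2-fold in most cases. At 10 μM, 0 of 15 members with a ratio were more than 2-fold higher (all genes, 3.37%) or lower (1.6%) than in control cells. At 100 μM, 1 of 16, KIFC2, was higher (6.76%), and 0 were lower (3.66%), so these counts are near the shares over all genes. The ratio exceeded 2 spot SDs in 10 of 15 members at 10 μM and in 12 of 16 at 100 μM. The share of all genes past 2 spot SDs was not computed, so these counts do not set the transport kinesins apart. The median log2 ratio was 0.08 at 10 μM and 0.22 at 100 μM, of which the second turned to -0.03 without scaling and -0.07 with median scaling, under which the median of all genes also fell to -0.16 and -0.20. At 100 μM 13 of the 16 members with a ratio lay within 1.5-fold of control, and the share of all genes within that limit was not computed. The medians of the groups, mitotic minus transport, differed by 0.12 on the log2 scale at 10 μM and by -2.63 at 100 μM. At 100 μM the ranges did not overlap, with the mitotic kinesins from -3.66 to -1.77 and the transport kinesins from -0.73, a bound, to 1.62. The groups were set with earlier results of these data known, and the gap depends on them. KIF2A, which also acts at spindle poles but was placed with the other kinesins, lay at -0.43. Counted as mitotic, it would make the ranges overlap.

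**Figure D3:**
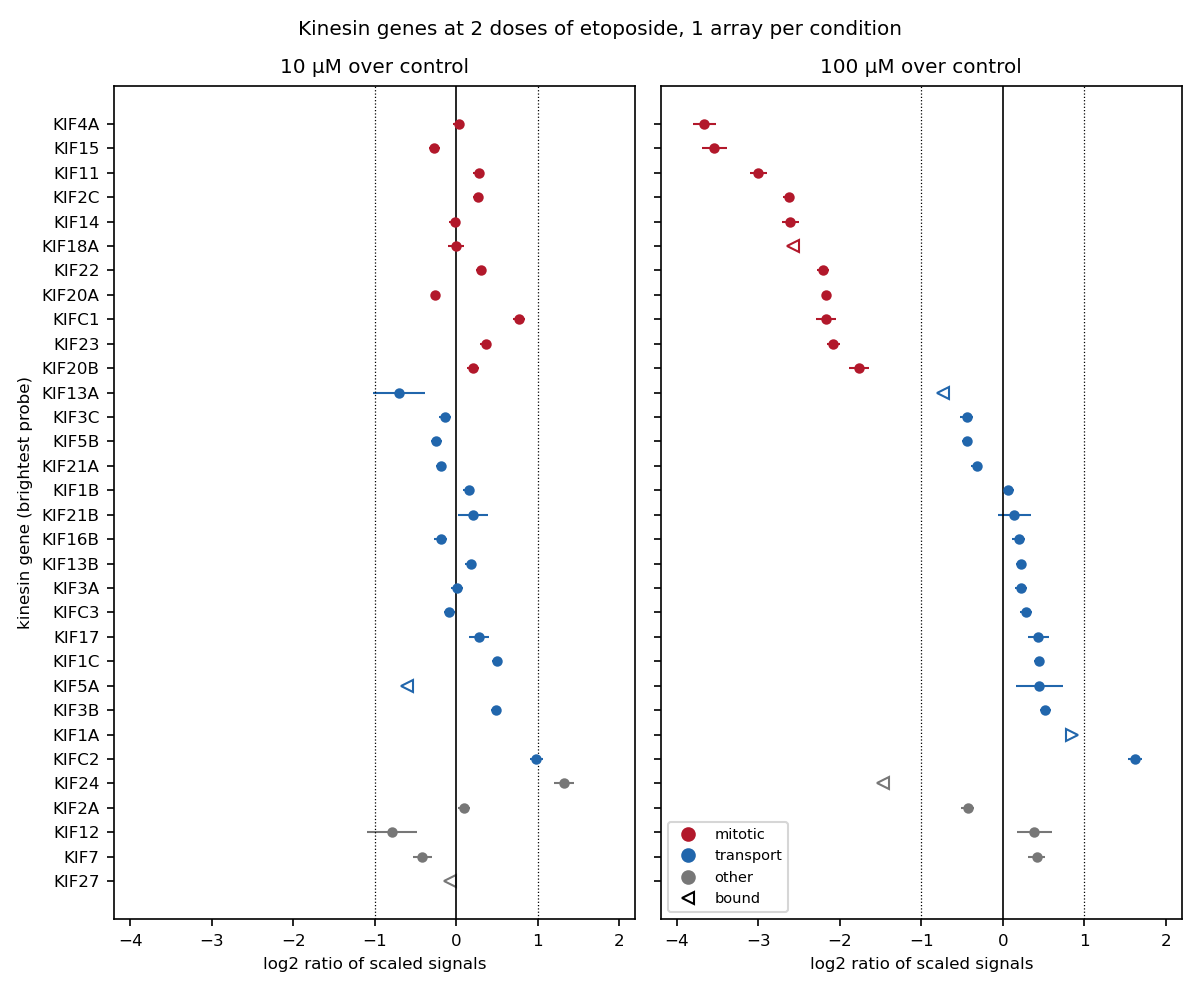
Log2 ratio of scaled signals (x axis) at 10 μM (left) and 100 μM (right) over control for each kinesin gene with a ratio (y axis), colored by group. Bars are the spot SD, arrowheads are bounds, and dotted lines mark 2-fold. At 100 μM the mitotic kinesins lie at -1.77 or lower and KIFC2 is the transport kinesin beyond 2-fold.

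KIFC2, a minus-end directed kinesin described mainly in neurons, had a signal of 195.1 in control cells, 386.4 at 10 μM and 599.3 at 100 μM. The signal was lowest in control cells and highest at 100 μM. The ratios to control were 1.98-fold (log2 0.99, spot SD 0.08) and 3.07-fold (log2 1.62). The 10 μM ratio lay just under 2-fold, and it passed 2-fold without scaling and with scaling by spike-in controls. A second, dimmer probe of KIFC2 gave at least 1.67-fold and at least 3.36-fold.

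Conventional kinesins (kinesin-1), which haul vesicles and mitochondria, were represented by KIF5B, the widely expressed member, with signals of 7617 in control cells, 6437 at 10 μM and 5618 at 100 μM. It was lowest at 100 μM, 1.36-fold below control. The neuronal KIF5A was dim, with 32.86, 19.97 and 44.9, and was not well above background at 10 μM. Its 10 μM signal was at least 1.51-fold below control and at least 2.07-fold below the 100 μM value. Between the doses, 1 of 16 transport kinesins with a ratio, KIF5A, was more than 2-fold lower at 10 μM (all genes, 3.95%). None was more than 2-fold higher (3.63%), so these counts are near the shares over all genes. KIF5A did not pass 2-fold without scaling, with median or spike-in scaling, with quantile normalization or with normexp. KIF5C was not well above background on any array.

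Among kinesin-2 motors, which drive transport into cilia, KIF3A gave 418.7 in control cells, 421.1 at 10 μM and 489 at 100 μM, and its partner KIF3B gave 869.1, 1218 and 1247. KIF3B was thus 1.40-fold and 1.43-fold higher at 10 and 100 μM. KIF3C gave 482.3, 439.2 and 354.8, and KIF17 gave 92.41, 112.4 and 125.2. KIF3C was lowest at 100 μM with and without scaling, whereas the other members of this family were highest there after scaling but not without it.

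Among kinesin-3 motors, which carry vesicles and endosomes, KIF1C had 19120 in control cells, 26990 at 10 μM and 25950 at 100 μM, which was 1.41-fold and 1.36-fold above control. KIF1B, a carrier of mitochondria and synaptic vesicle precursors, gave 2044, 2274 and 2141, and KIF13B gave 1624, 1836 and 1894. KIF16B, which moves early endosomes, gave 346.2, 303.8 and 396.8. None of these moved by more than 1.5-fold. KIF13A, which moves recycling endosomes, was dim at 43.71, 26.9 and 26.34. It lay 1.63-fold below control at 10 μM (log2 -0.70, spot SD 0.31) and at least 1.66-fold below at 100 μM. With normexp the log2 ratio of KIF13A at 10 μM was -0.17, and it had no ratio at 100 μM. KIF1A, a carrier of synaptic vesicle precursors, gave 10.23, 23.98 and 35.14, of which only the last was well above background and at least 1.80-fold higher at 100 μM than in control cells.

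The kinesin-4 motors KIF21A and KIF21B, known from neurons, gave 65.48, 57.35 and 52.47 and 52.71, 60.64 and 58.2. KIFC3, a minus-end directed motor of epithelial cells, gave 407.4, 384.3 and 496.1. These 3 genes stayed within 1.5-fold of control at both doses.

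Of the 11 other kinesins, 5 had a ratio to control at 10 μM and 4 at 100 μM. Among these, KIF24 was more than 2-fold higher at 10 μM (all genes, 3.37%) and more than 2-fold lower at 100 μM (3.66%). KIF24, which takes apart microtubules at centrioles and holds back the growth of cilia, was measured at chr9:34242509-34242568 of hg18. The signal of KIF24 was 71.37 in control cells, 178.4 at 10 μM and 11.22 at 100 μM, where it was not well above background. Its log2 ratio to control was 1.32 at 10 μM (spot SD 0.13). At 100 μM it was at least 2.77-fold below control and at least 6.93-fold below the 10 μM value. It was the kinesin gene that passed 2-fold over control at 10 μM. With normexp background correction KIF24 no longer passed 2-fold over control at 10 μM (0.84) or at 100 μM (-0.25), but still did between the doses (1.09).

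KIF2A, which takes apart microtubules at spindle poles and in neurons, gave 385.8 in control cells, 412.2 at 10 μM and 285.8 at 100 μM. Its decrease at 100 μM was 1.35-fold, short of the 2-fold limit that its relative KIF2C passed. KIF7, a regulator of Hedgehog signaling at the tip of the cilium, gave 134.9, 101.2 and 179.7. KIF12 gave 47.29, 27.49 and 61.86 and was 2.25-fold below its 100 μM value at 10 μM, with a spot SD of 0.30 on the log2 scale. Of the 4 other kinesins with a ratio between the doses, KIF12 was the 1 more than 2-fold lower at 10 μM (all genes, 3.95%). KIF24 was the 1 more than 2-fold higher (3.63%). KIF12 did not pass 2-fold without scaling, with median or spike-in scaling, with quantile normalization or with normexp. Both KIF7 and KIF12 were lowest at 10 μM and highest at 100 μM. KIF27, a relative of KIF7, had only a bound near 1 at 10 μM (log2 -0.07). KIF19, KIF25, KIF26A, KIF26B, KIF6 and KIF9 were not well above background on any array.

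Probes of the same gene served as a check within the arrays. Among 14 kinesin genes with several probes, 9 had at least 2 probes with a ratio, and at 100 μM their signs were the same in 5 and opposite in 4. The second probes of KIF23 (4.32-fold lower), KIF4A (at least 6.78-fold lower) and KIF20B (at least 6.92-fold lower) fell with their brightest probes. KIF22 had a second probe that was 4.32-fold lower and overlaps the first, and another, dim probe designed on another transcript record that gave a log2 ratio of 0.34 (spot SD 0.20). The other genes with opposite signs were the transport kinesins KIF13B, KIF1B and KIF3C. In KIF13B and KIF3C the probes of the opposite sign lay at -0.06 and 0.10, and in KIF1B the 4 probes ranged from -0.12 to 0.67, the last of which is a bound. The brightest probes of KIF20A, KIF22 and KIFC1 span 724, 808 and 194 bases of hg18, more than their own 60 bases, so they join parts of the genome that lie apart. Exon and UTR positions of the probes were not analysed here.

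**Figure D4:**
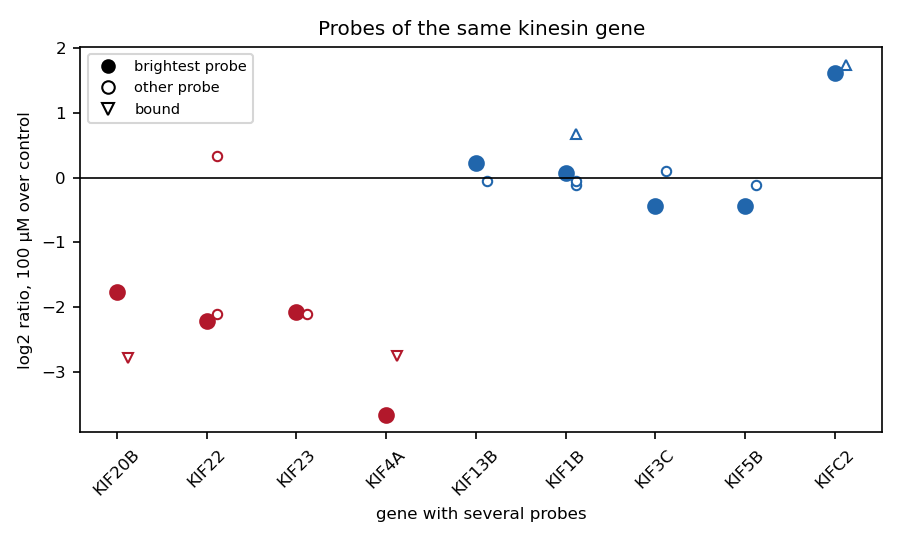
Log2 ratio of 100 μM over control (y axis) for the 9 kinesin genes (x axis) with at least 2 probes that had a ratio, with the brightest probe filled, other probes open and bounds as triangles. Mitotic genes are red and transport genes blue. The dim probe of KIF22, at 0.34, is the mitotic probe above 0.

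Partners of mitotic kinesins, a list chosen with earlier results of these data known, moved like the motors they work with. Of 14 such genes, 0 were more than 2-fold higher (all genes, 3.37%) or lower (1.6%) at 10 μM, near the shares over all genes. At 100 μM, 14 were more than 2-fold lower than in control cells (3.66%). Between the doses, 14 were more than 2-fold higher with 10 μM than with 100 μM (3.63%). The median log2 ratios of these genes were 0.08, -2.59 and 2.66 in the same order. CENPE, itself a kinesin that lies outside the name rule and carries chromosomes toward the spindle equator, had unscaled signals of 532.2, 467.7 and 66.5 and was 6.73-fold lower at 100 μM. Lowest at 100 μM were BIRC5 (-3.60), the survivin subunit of the chromosomal passenger complex, and its kinase AURKB (-3.16, a bound). Least lowered were INCENP (-1.30), the scaffold of that complex, and ECT2 (-2.0), which activates RHOA for cytokinesis. At 10 μM the highest were ANLN (0.57) and NUSAP1 (0.52) and the lowest AURKA (-0.57) and BIRC5 (-0.50). Between the doses ANLN (3.24, a bound) and AURKB (3.15, a bound) were highest, and AURKA (1.64) and INCENP (1.80) lowest.

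Adaptors and light chains of transport kinesins were a further list. Of 18 such genes, 2 were more than 2-fold higher than in control cells at 10 μM (all genes, 3.37%) and 4 at 100 μM (6.76%), and 0 were more than 2-fold lower at 10 μM (1.6%) or at 100 μM (3.66%). The higher ones included the scaffold MAPK8IP2 at 10 μM (1.21) and, at 100 μM, MAPK8IP2 (1.68), the light chain KLC3 (1.55, a bound) and the scaffold MAPK8IP3 (1.12). The lowest were the mitochondrial adaptor RHOT1 (-0.75) and the light chain KLC4 (-0.56) at 10 μM, and KTN1 (-0.29) was the lowest at 100 μM. Between the doses KLC4 (-1.24) and KLC3 (-1.01) passed 2-fold, both lower at 10 μM (all genes, 3.95%), and TRAK1 (0.33) was highest. The median log2 ratios were 0.19, 0.37 and -0.11 for 10 μM over control, 100 μM over control and 10 over 100 μM.

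At 100 μM the mitotic median lay below the transport median under each processing alternative that gave both, whereas the transport median changed sign. Over all settings the mitotic median at 100 μM lay between -2.70 and -1.98, and the transport median between -0.07 and 0.29.

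**Figure D5:**
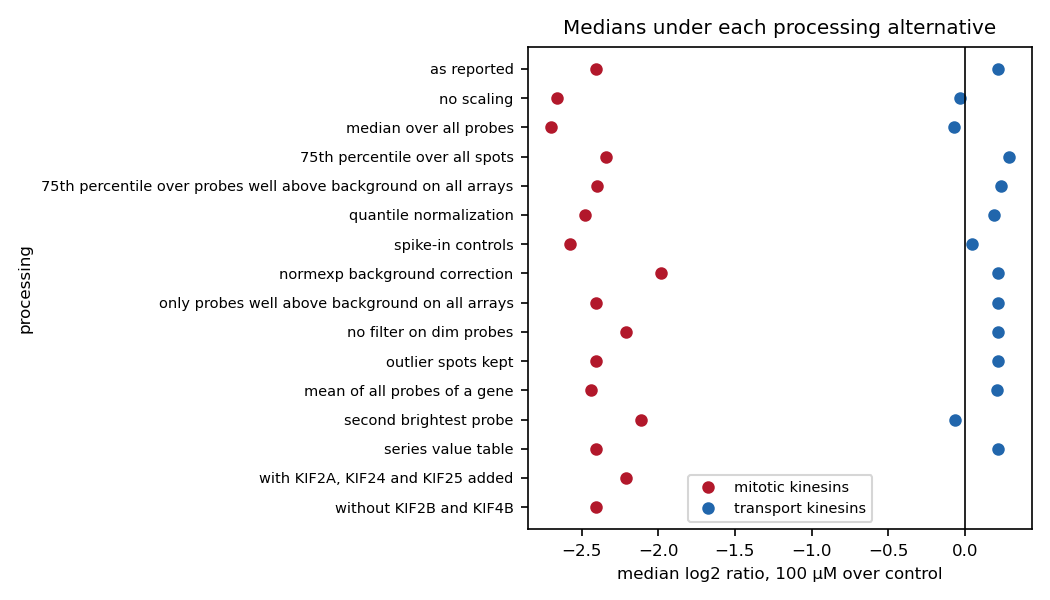
Median log2 ratio of 100 μM over control (x axis) of the mitotic kinesins (red) and the transport kinesins (blue) under each processing (y axis). The mitotic medians lie from -2.70 to -1.98, and the transport medians lie on both sides of 0, from -0.07 to 0.29.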

How the data were processed

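Kinesin transcripts were measured in HepG2 cells on 1-color Agilent arrays with probes of 60 bases, on 1 slide. The authors deposited the scanner intensity of each spot from Feature Extraction 10.7.3.1, background-subtracted and detrended within the array but not scaled between arrays. The deposited table of the whole series held the same intensity for all 44495 spots of each array.

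Outlier spots were left out, spots of a probe were averaged as log2 values, and each array was set relative to its 75th percentile over all probes, each probe counted once. A ratio needed a signal well above background, in most spots, in the brighter condition. Control spots were left out. Probe positions and gene names are those of the files (hg18). The accession of 40 of 41 kinesin genes matched its symbol in RefSeq, and that of 1 was not in the table used.

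The members, gene lists, motifs and alternatives were chosen with earlier results of these data known. Every kinesin gene is named, with values unless dim on all arrays, and of each partner list the 2 highest and 2 lowest. Some genes that this rule selects are not reported here. Steps were tested on simulated arrays. Alternatives were other scalings, normexp with an offset of 50 (limma 3.58.1, R 4.3.3), other filters, probes, lists and fold limits. Python 3.11.15, pandas 2.3.3, numpy 2.4.6 and matplotlib 3.10.9 were used.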

Additional observations from a re-analysis of the deposited data

How the results depend on the processing

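No paired analysis was possible because there was only 1 array for each condition. For the mitotic kinesins at the high dose over control and for the low over the high dose, the median log2 ratio was -2.66 and 3.06 without scaling, -2.70 and 3.01 with median scaling, -2.58 and 2.97 with 7 spike-in probes, -1.98 and 2.17 with normexp, -2.21 and 2.59 without a filter on dim probes, -2.11 and 2.53 with second brightest probes and -2.21 and 2.59 with KIF2A, KIF24 and KIF25 added. At the low dose it was 0.27 with the mean of all probes and 0.38 with second probes. Second probes gave 4 genes in place of 11, since only 4 had a ratio. Of these, KIF20B and KIF4A had only bounds against the high dose, so the 2 medians of second probes there rest on KIF22 and KIF23. At the low dose 1 mitotic gene passed in place of 0 with KIF24 among those added, and 1 (KIFC1) at 1.5-fold. The transport median at the low dose was 0.15 both when probes had to pass the background call on all arrays and without a filter, -0.02 with the mean of all probes and -0.00 with second probes. At the high dose it was -0.03 without scaling, -0.07 with median scaling, 0.05 with spike-ins and -0.06 with second probes. For the low over the high dose it was 0.28, 0.23 and 0.19 with these 3 scalings, and -0.11 both with a percentile taken over spots and with normexp. Transport kinesins past 2-fold at the high dose numbered 2 with median scaling, quantile normalization (KIF13A added in both) or no filter, and 3 at 1.5-fold, in place of 1. The cause of these shifts was not tested, apart from genes added or lost by the setting itself. Of 1125 gene values under alternatives, 836 moved by less than their spot SD, 289 moved by more, and 0 of the called ones changed sign. The tally includes settings under which values could not move, such as the deposited series table with its identical intensities. Signals near background limit KIF18A, KIF24, KIF5A, KIF13A, KIF1A and KIF27 to a bound in at least 1 comparison. With 1 array per condition there is no estimate of the spread between cultures.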

Other observations

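Dynein and dynactin, the motor and cofactor that walk toward microtubule minus ends opposite to most kinesins, had 21 of 23 genes with a ratio. Of the 21, 0 were more than 2-fold higher (all genes, 3.37% at 10 μM and 6.76% at 100 μM) or lower (1.6% and 3.66%) than in control cells, so these counts are near the shares over all genes, and the median log2 ratios were 0.13 and 0.19. At the low dose the highest were NDE1 (0.75) and DYNLT1 (0.55), and the lowest DCTN4 (-0.16) and PAFAH1B1 (-0.12). At the high dose the highest were DYNC1LI2 (0.49) and ACTR1A (0.47), and the lowest NDE1 (-0.29) and PAFAH1B1 (-0.20). Between the doses, NDE1, a dynein regulator needed at kinetochores and centrosomes, was 1.03 on the log2 scale higher at the low dose and passed 2-fold (all genes, 3.63%). DYNLT1 followed at 0.38, and DYNC1LI2 (-0.45) and DYNLT3 (-0.28) were lowest.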
